A study of Mus musculus with 24 samples.

Results

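The proteasome subunit genes were chosen by name: every probe whose gene name begins with Psma, Psmb, Psmc, Psmd, Psme or Psmg, without Psmb8, Psmb9 and Psmb10, and kept where its spot was well above background on at least 4 of the 24 arrays. Of 70 such probes among the 41174 gene probes of the array, 69 were kept, and they stand for 45 of the 26174 gene names with a kept probe. The prefix also takes in Psmc3ip, which is a meiotic recombination factor and no proteasome subunit; it is kept in the counts because the rule is by name. Both probes just inside the limit, a second probe of Psma2 and a second probe of Psmd14, were well above background on 4 arrays, the next, a probe of Psmd11, on 15, and the probe left out, of Psmb11, on none. The other 66 member probes were well above background on all 24 arrays, none was saturated and none lacked a value. Where a gene had several kept probes, the probe with the highest mean signal stood for the gene, and the others are given separately.

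The samples are hippocampi of C57Bl/6 mice, 1 mouse per array and 4 mice per group, with no transgene and no pooling recorded in the labels. The fear groups, aged 16 months and 3 months, were placed for 3 min in an unfamiliar chamber and then received 1 foot shock (0.7 mA, 2 s), with tissue taken 1 h later. The shock-context group, aged 3 months, was shocked on entry and explored the chamber afterwards, and the context group, aged 3 months, explored it with no shock; both were taken 1 h later. The control groups, aged 16 months and 3 months, were handled and had neither chamber nor shock. RNA of each mouse was hybridised to an Agilent array read in a single colour, so a value is a log2 signal after quantile normalization over the 24 arrays: 1 unit is a doubling, and levels of different probes cannot be set against each other.

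The 16 fear and control arrays came from a first run, with 1 array of each of the 4 groups on each of 4 slides, and the 8 context and shock-context arrays from a second run on slides 5 and 6. In the first run the 75th percentile of the processed signal lay between 756.6 and 2137 and 86.57% to 94.01% of spots were well above background; in the second run these ranges were 3101 to 8369 and 75.5% to 81.74%. Any comparison between the runs therefore holds the run as well as the group, and the run and the group cannot be told apart there. All 12 hippocampal neuron markers were well above background on all 24 arrays. Markers of tissue next to the hippocampus moved with the fear group aged 3 months: all 15 measured choroid plexus markers of 16 listed were lower than in controls aged 3 months (median log2 difference -3.08), and their summed signal was 21568 to 35616 in the fear group against 169628 to 245223 in controls. In the same comparison 8 of 12 thalamus markers were higher and 1 lower, and 6 of 8 oligodendrocyte markers were higher. Of 10 microglia markers 4 were lower and 1 higher, and of 8 endothelium markers 4 were lower and 2 higher. The hippocampal neuron markers had 2 of 12 higher and 2 lower, and the astrocyte markers 2 of 8 higher and 2 lower. Of all probes 22.6% were higher and 20.7% lower. The summed microglia signal was 50932 to 56874 in the fear group aged 3 months and 60696 to 69667 in controls aged 3 months. These shifts stand beside every comparison that uses the fear group aged 3 months, and their part in the proteasome results was not tested. The thalamus shift was not confined to that group. Fear against control gave a median log2 difference of 1.34 over the 12 thalamus markers at 3 months and 0.99 at 16 months. In whole tissue, fewer cells of a type and less RNA per cell cannot be told apart.

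The proteasome is the barrel-shaped protease that degrades ubiquitin-tagged proteins in the cytosol and nucleus. Its core particle stacks rings of alpha subunits (Psma genes), which gate the entry, around rings of beta subunits (Psmb genes), of which Psmb6, Psmb7 and Psmb5 carry the caspase-like, trypsin-like and chymotrypsin-like sites. The regulatory particle caps the core: the ATPases of its base (Psmc genes) unfold the substrate, Psmd4 is a ubiquitin receptor, Psmd2 docks ubiquitin-binding partners, and Psmd14 in the lid cuts the ubiquitin chain off. Proteasome activity in the hippocampus is known for its part in synaptic plasticity and in the consolidation of fear memory. Transcription of the subunit genes is known to be coordinated, in mammals through Nfe2l1, which binds antioxidant response elements.

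The stretches before the transcription starts are shown because core and regulatory genes gave different counts after conditioning, and the promoters are where the members' sequences can be compared. RefSeq's mouse promoter table (GRCm38.p6) held 37 of the 45 member genes, among them 11 of 14 core and 14 of 17 regulatory genes. Each start's 250 upstream bases were searched on both strands for 3 motifs, and a gene counted if any of its starts had a match. The antioxidant response element, TGACNNNGC, occurred for 2 of 11 core genes, 2 of 14 regulatory genes and 11.5% of all 27025 genes in the table. The CCAAT box occurred for 6 core genes (54.5%), 4 regulatory genes (28.6%) and 37.5% of all genes. The ETS motif CCGGAAG occurred for 1 core gene (9.09%), 8 regulatory genes (57.1%) and 7.83% of all genes. Each motif was counted without regard to overlap with the others, no test was made on these counts, and a match is a description of the letters, not a site. The regulatory genes with the ETS letters were Psmc1, Psmc2, Psmc6, Psmd2, Psmd4, Psmd6, Psmd11 and Psmd12, and the core gene was Psma6. The regulatory stretches follow, with up to 20 bases on either side of a match, and Psmc2 has a match before each of 2 starts; they are written on the strand of the gene, and capitals mark the motif or its reverse complement:
Psmc1, chr12:100110154-100110200, plus strand: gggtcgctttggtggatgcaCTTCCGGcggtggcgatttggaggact
Psmc2, chr5:21785171-21785217, plus strand: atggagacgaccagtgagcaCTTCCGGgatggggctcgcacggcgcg
Psmc2, chr5:21786703-21786746, plus strand: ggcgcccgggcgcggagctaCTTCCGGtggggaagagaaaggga
Psmc6, chr14:45329704-45329750, plus strand: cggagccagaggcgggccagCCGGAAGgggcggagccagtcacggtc
Psmd2, chr16:20651606-20651651, plus strand: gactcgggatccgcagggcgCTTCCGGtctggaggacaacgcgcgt
Psmd4, chr3:95042713-95042759, minus strand: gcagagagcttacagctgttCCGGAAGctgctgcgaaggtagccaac
Psmd6, chr14:14120964-14121010, minus strand: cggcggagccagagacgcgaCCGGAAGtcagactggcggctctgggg
Psmd11, chr11:80428584-80428614, plus strand: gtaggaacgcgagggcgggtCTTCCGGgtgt
Psmd12, chr11:107479491-107479527, plus strand: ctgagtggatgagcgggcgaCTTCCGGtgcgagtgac

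The core genes with antioxidant response element letters were Psmb5 and Psmb6, both catalytic; they are shown because the pair differs in the comparison of fear with control at 3 months:
Psmb5, chr14:54618014-54618062, minus strand: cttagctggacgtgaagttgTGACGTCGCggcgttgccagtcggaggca
Psmb6, chr11:70525328-70525356, plus strand: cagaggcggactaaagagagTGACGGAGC

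Fear conditioning at 3 months was set against handling at 3 months to ask which genes respond to training in younger mice. The core particle genes were mostly lower after conditioning and the regulatory particle genes were not: 8 of 14 core genes fell, 1 rose and 5 did not pass the test, against 5 of 17 regulatory genes that rose, 2 that fell and 10 that did not pass. The median log2 difference was -0.42 over the core genes and 0.05 over the regulatory genes, beside -0.08 over all 38763 probes tested. The directions of the regulatory genes depend on the scaling: with each array scaled to its 75th percentile in place of quantile normalization, the median of all probes was -0.27, 12 core genes were lower and 1 higher, and 7 regulatory genes were lower and 1 higher. Under quantile normalization but without fear array 3, or without fear array 4, 3 regulatory genes rose and 3 fell, and with only the 8 arrays compared 3 rose and none fell. Over all members, 38 of 69 probes passed an adjusted p of 0.05 in the limma fit (15 higher, 23 lower), in a comparison in which 43.3% of all probes did (22.6% higher and 20.7% lower), and nothing particular to the members is read from it. By 75th percentile scaling the split was 8 higher and 34 lower, where 44.6% of all probes passed and 38.6% of those were higher.

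Averaged over the genes of each particle, with every gene centred on its mean over the 24 arrays, the core particle stood at -0.33, -0.31, -0.23 and -0.20 on the fear arrays aged 3 months, against 0.20, 0.19, 0.04 and 0.07 on the control arrays aged 3 months. All fear arrays lay below all control arrays. The regulatory particle stood at -0.06, -0.05, 0.14 and 0.16 on the fear arrays, against -0.05, -0.03, 0.03 and -0.07 on the control arrays, and these ranges overlapped. The core minus the regulatory particle averaged -0.32 ± 0.06 in the fear group and 0.16 ± 0.10 in the control group (SD, n = 4 each), a difference of -0.47, with -0.27, -0.27, -0.37 and -0.37 on the fear arrays and 0.25, 0.22, 0.01 and 0.14 on the control arrays. Within slides 1 to 4, where each slide holds an array of either group, the difference was -0.52, -0.49, -0.38 and -0.51. With 75th percentile scaling the difference between the groups was -0.50, and with the mean of all kept probes of a gene in place of its brightest probe it was -0.36. This measure is a description of the arrays and was not tested.

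**Figure D1:**
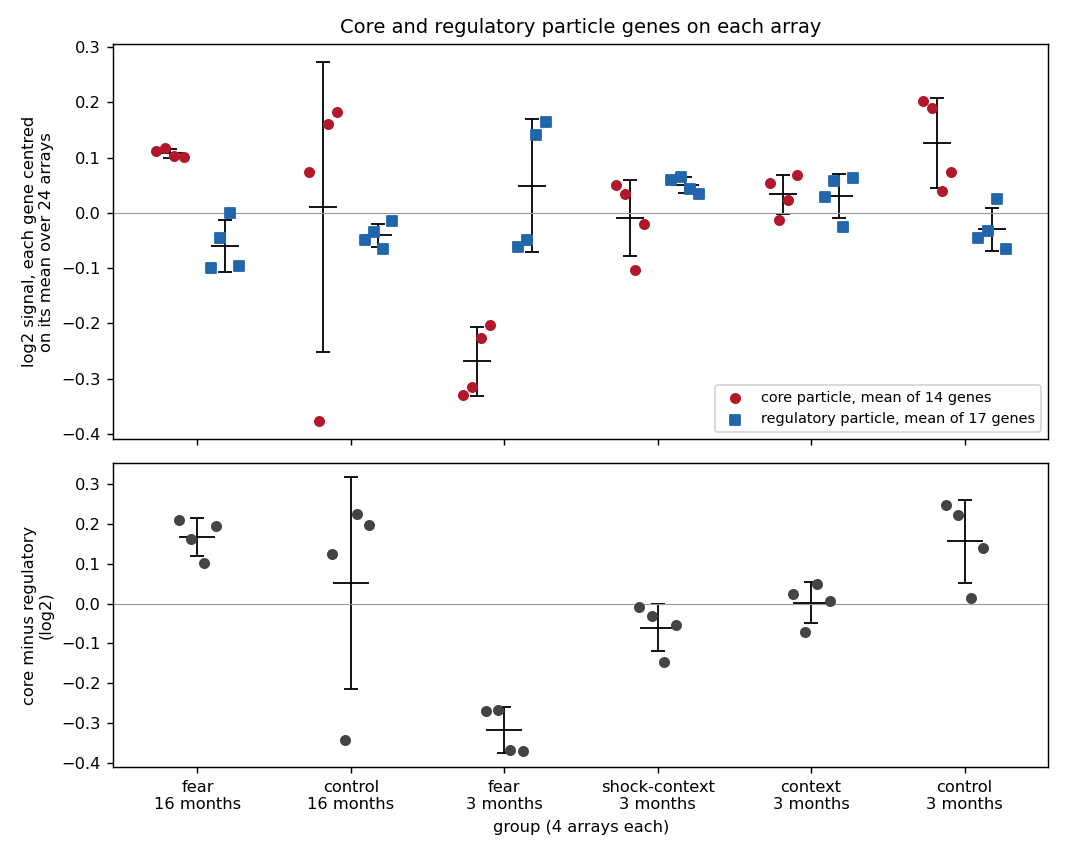
Mean log2 signal of the 14 core particle genes (circles) and the 17 regulatory particle genes (squares) on every array, each gene centred on its mean over 24 arrays, and below it the core minus the regulatory mean; bars are the group mean and SD, n = 4 arrays. The fear arrays aged 3 months sit between -0.33 and -0.20 for the core particle, below all arrays of the other groups but 1 control array aged 16 months, at -0.38.

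Among the alpha ring genes, Psma2 and Psma4 changed the most and 4 of 7 fell. Psma2 had a log2 signal of 14.65, 14.56, 14.67 and 14.70 on the fear arrays aged 3 months, against 15.54, 15.56, 15.43 and 15.47 on the control arrays aged 3 months. The groups do not overlap, and all fear arrays were lower: the difference was -0.86 ± 0.08 (SE), a 1.81-fold lower signal (adjusted p = 8.71e-08). Psma4 had 11.80, 11.79, 12.40 and 12.21 after fear conditioning, against 12.70, 12.58, 12.87 and 12.61 in controls, with no overlap (log2 difference -0.64 ± 0.13, adjusted p = 0.000406). Its second probe gave -0.55 ± 0.15 (adjusted p = 0.00586). Psma5 fell by 0.60 and Psma7 fell by 0.24 on the log2 scale. Psma1 and Psma3 had log2 differences of -0.23 and -0.23 that did not pass. Psma6 gave 0.01 ± 0.97; its SE is large because the fit shares the spread over the 6 groups and 1 control array aged 16 months read 7.17.

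Of the beta ring genes 4 of 7 fell and Psmb2 rose. Psmb4, a beta subunit with no catalytic site, had 14.81, 14.89, 14.96 and 15.29 after fear conditioning, against 15.79, 15.91, 15.89 and 15.57 in controls. No fear array reached the lowest control array, and the difference was -0.80 ± 0.10 (adjusted p = 1.66e-06). Psmb6, the caspase-like subunit, had 14.76, 14.82, 14.48 and 14.51 after fear conditioning, against 15.45, 15.38, 15.60 and 15.19 in controls, again with no overlap (-0.76 ± 0.12, adjusted p = 3.43e-05). The other catalytic subunits did not pass the test. Psmb5, the chymotrypsin-like subunit, had 14.22, 14.38, 14.77 and 14.47 after fear conditioning, against 14.56, 14.35, 14.55 and 14.50 in controls, and the groups overlap (-0.03 ± 0.13, adjusted p = 0.891). Psmb7, the trypsin-like subunit, had 12.70, 12.68, 13.18 and 13.33 after fear conditioning, against 13.20, 13.17, 13.26 and 13.11 in controls, with arrays 1 and 2 low and arrays 3 and 4 at the level of the controls (-0.21 ± 0.14, adjusted p = 0.230). Psmb1 and Psmb3 fell by 0.66 and 0.70 on the log2 scale, and the second probe of Psmb3 fell by 0.64. Psmb2 rose by 0.42 ± 0.12 (adjusted p = 0.00922), although its arrays overlap.

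**Figure D2:**
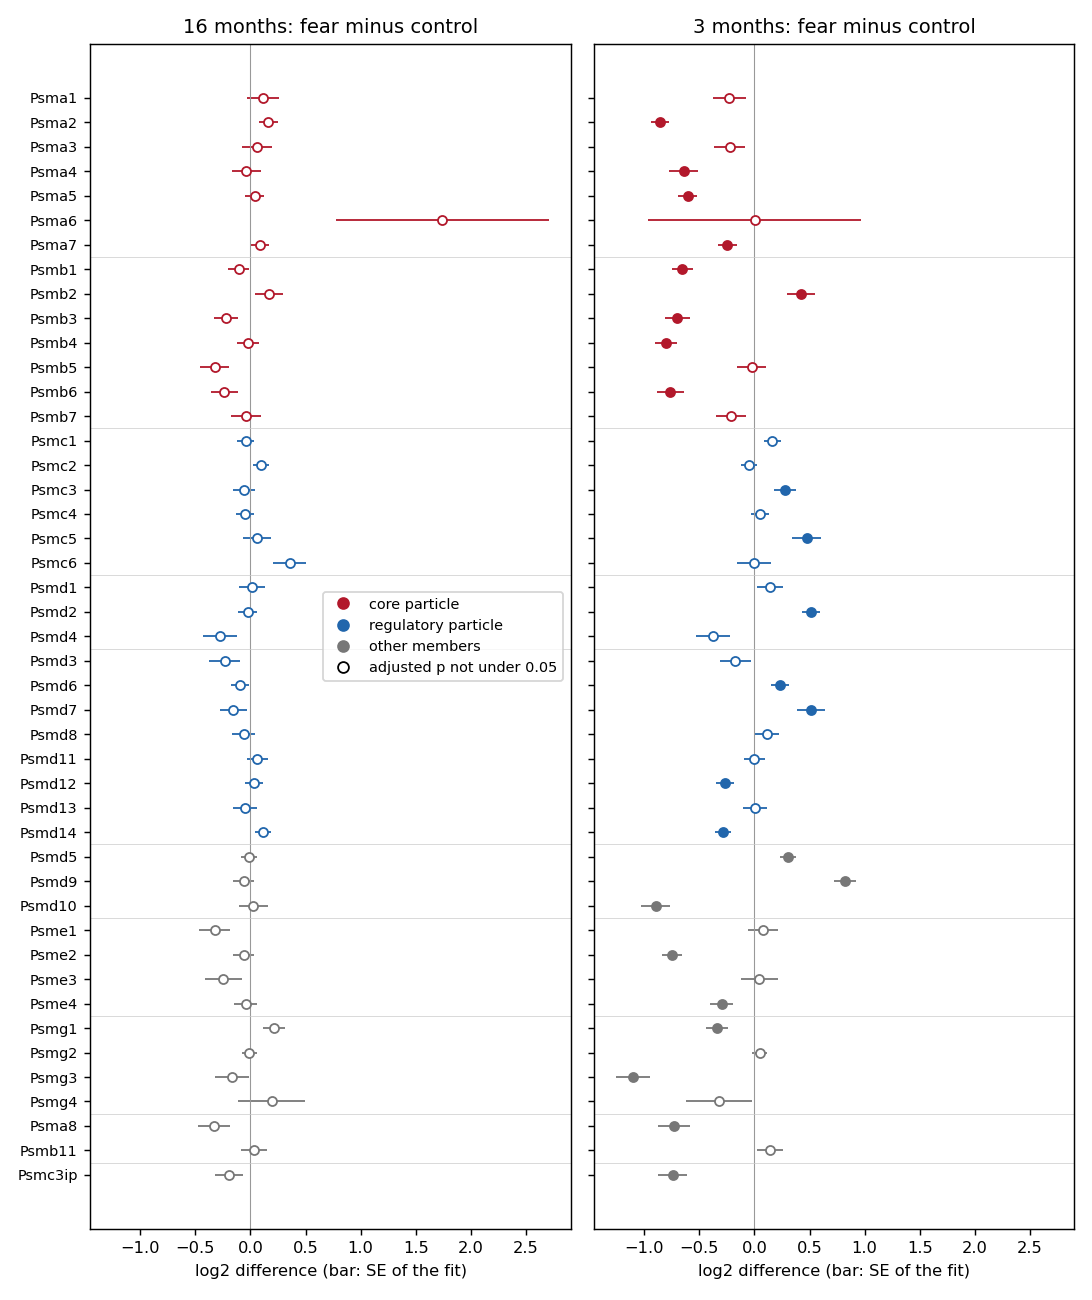
Log2 difference of fear minus control for the 45 member genes, grouped by role, at 16 months (left) and 3 months (right); points are the fitted differences, bars their SE, filled where the adjusted p was under 0.05. At 3 months 8 core genes lie left of 0 with filled points and 5 regulatory genes right of it; at 16 months no point is filled.

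The probes behind these values are 60-mers, and 26 of the 69 kept span an exon junction. Of the core and regulatory genes, 9 such probes were called in this comparison, and each can pair along its length only with spliced RNA. The 8 with a frame free of stops, whether or not it is the coding frame, are shown. The other, of Psmb4, fell too, has no such frame and is not shown. Junction probes that were not called are not shown either. Of the core genes, Psma4 is read by 2 such probes that agree in direction, Psmb1 by a probe that fell and Psmb2 by a probe that rose; of the regulatory genes, Psmc5 is read by 2 probes that both rose, Psmd2 by 1 that rose and Psmd14 by 1 that fell. Positions are on mm9, as in the array's annotation:
Psma4, chr9:54802491-54802690, plus strand: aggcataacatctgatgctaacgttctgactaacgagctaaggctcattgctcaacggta
Psma4, chr9:54802741-54804087, plus strand: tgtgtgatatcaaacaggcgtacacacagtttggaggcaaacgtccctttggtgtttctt
Psmb1, chr17:15630098-15631393, minus strand: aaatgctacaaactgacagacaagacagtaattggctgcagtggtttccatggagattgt
Psmb2, chr4:126361456-126364299, plus strand: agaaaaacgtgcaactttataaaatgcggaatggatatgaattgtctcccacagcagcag
Psmc5, chr11:106124192-106124376, plus strand: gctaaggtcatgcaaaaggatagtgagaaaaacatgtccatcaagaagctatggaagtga
Psmc5, chr11:106122563-106122762, plus strand: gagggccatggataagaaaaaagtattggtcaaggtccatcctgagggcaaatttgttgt
Psmd2, chr16:20660170-20660469, plus strand: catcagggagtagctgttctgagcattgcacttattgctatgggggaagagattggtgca
Psmd14, chr2:61635507-61638090, plus strand: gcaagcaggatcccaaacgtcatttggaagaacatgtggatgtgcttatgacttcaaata

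In the base of the regulatory particle, 2 of 6 ATPase genes and 1 of the 3 other base genes rose under quantile normalization. Psmc5 had 14.82, 14.83, 15.40 and 15.27 after fear conditioning at 3 months, against 14.65, 14.81, 14.52 and 14.45 in controls aged 3 months. The groups do not overlap, by a margin of a single control array (0.47 ± 0.13, adjusted p = 0.00552), and with 75th percentile scaling the difference was 0.10 and did not pass. Its second probe, at chr11:106122563-106122762, gave 0.39 ± 0.10 (adjusted p = 0.00279). Psmc3 had 13.36, 13.32, 13.80 and 13.73 after fear conditioning, against 13.32, 13.22, 13.18 and 13.37 in controls (0.28 ± 0.10, adjusted p = 0.0267); it overlapped the controls and gave 0.07 with 75th percentile scaling, which did not pass. Psmd2, the docking subunit, had 15.01, 14.96, 14.99 and 15.14 after fear conditioning, against 14.57, 14.61, 14.40 and 14.48 in controls. All fear arrays lay above all control arrays (0.51 ± 0.08, adjusted p = 3.92e-05), its junction probe gave 0.84 ± 0.16 (adjusted p = 0.000166), and 75th percentile scaling gave 0.16, which did not pass. Psmd4, the ubiquitin receptor, had 13.35, 13.59, 14.03 and 13.91 after fear conditioning, against 14.03, 13.83, 14.45 and 14.06 in controls, and its difference of -0.37 ± 0.15 did not pass (adjusted p = 0.0554). Psmc1, Psmc2, Psmc4, Psmc6 and Psmd1 lay between -0.05 and 0.16 and did not pass.

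In the lid 2 of 8 genes rose and 2 fell. Psmd7, the partner of Psmd14, had 13.44, 13.51, 14.00 and 13.70 after fear conditioning at 3 months, against 13.20, 13.00, 13.19 and 13.20 in controls aged 3 months, with no overlap (0.51 ± 0.13, adjusted p = 0.00220); it was the regulatory gene that stayed higher with 75th percentile scaling, at 0.30. Psmd14, the deubiquitinase, had 14.08, 14.15, 14.28 and 14.26 after fear conditioning, against 14.43, 14.56, 14.54 and 14.39 in controls. The groups do not overlap, and the difference was -0.29 ± 0.07 (adjusted p = 0.00256). Psmd6 rose by 0.23 under quantile normalization and had -0.02 under 75th percentile scaling, and Psmd12 fell by 0.27. Psmd3, Psmd8, Psmd11 and Psmd13 had differences between -0.17 and 0.11 that did not pass. Of the 8 regulatory genes with ETS letters before their starts, Psmd2 and Psmd6 rose, Psmd12 fell and the other 5 did not pass.

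Among the genes that assemble or activate the proteasome, changes ran in either direction. Psmd10, a chaperone of base assembly also known as gankyrin, had 10.96, 10.81, 10.66 and 10.81 after fear conditioning at 3 months, against 11.79, 12.02, 11.57 and 11.45 in controls aged 3 months (-0.89 ± 0.13, adjusted p = 1.06e-05). Psmd9, another base chaperone, went the other way, with 10.45, 10.53, 10.94 and 10.77 after fear conditioning, against 9.98, 9.85, 9.76 and 9.82 in controls (0.82 ± 0.10, adjusted p = 8.69e-07). Neither gene's groups overlap, and Psmd5, the remaining base chaperone, rose by 0.31. Of the core assembly chaperones, Psmg3 had 11.70, 11.38, 10.67 and 11.28 after fear conditioning, against 12.59, 12.32, 12.16 and 12.36 in controls, a 2.14-fold lower signal (-1.10 ± 0.15, adjusted p = 6.33e-06). Psmg1 fell by 0.34 with overlapping arrays, while Psmg2 and Psmg4 had differences of 0.05 and -0.32 that did not pass.

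The activators cap the core in place of the regulatory particle. Psme2, a subunit of the interferon-inducible activator, had 13.71, 13.78, 13.87 and 13.59 after fear conditioning at 3 months, against 14.45, 14.40, 14.48 and 14.60 in controls aged 3 months (-0.74 ± 0.09, adjusted p = 1.48e-06). All fear arrays were lower; the older annotation assigns both Psme2 probes to a near-identical pseudogene, Psme2b-ps, so its signal may include that copy. Psme1, its partner subunit, had 13.61, 13.63, 13.94 and 13.50, against 13.72, 13.34, 13.75 and 13.55 in controls, with overlap (0.08 ± 0.14, adjusted p = 0.690). Psme3, the nuclear activator, had 14.05, 14.06, 14.29 and 13.61, against 14.32, 13.72, 13.61 and 14.18 in controls, also with overlap (0.05 ± 0.17, adjusted p = 0.851). Psme4 fell by 0.30 on its brightest probe (SE 0.10, adjusted p = 0.0248), a call lost under 8 of 17 other settings, with 13.38, 13.34, 13.61 and 13.70 against 13.83, 13.87, 13.78 and 13.72 in controls.

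Genes known from other tissues were measured too. Psma8, an alpha subunit of the testis, had 7.11, 7.56, 6.92 and 7.08 after fear conditioning at 3 months, against 8.09, 7.96, 7.89 and 7.67 in controls aged 3 months (-0.73 ± 0.15, adjusted p = 0.000328). Psmb11, the beta subunit of the thymus, had a difference of 0.14 that did not pass. This is its kept probe: the other Psmb11 probe was well above background on no array, and what the kept probe reads was not tested. Psmc3ip fell by 0.74 ± 0.13 (adjusted p = 8.12e-05). Across the 25 member genes called in this comparison, 23 had the same sign on all 4 slides and 2 on 3 of them. These genes were called on the same arrays, so the shared signs add no support to the calls.

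**Figure D3:**
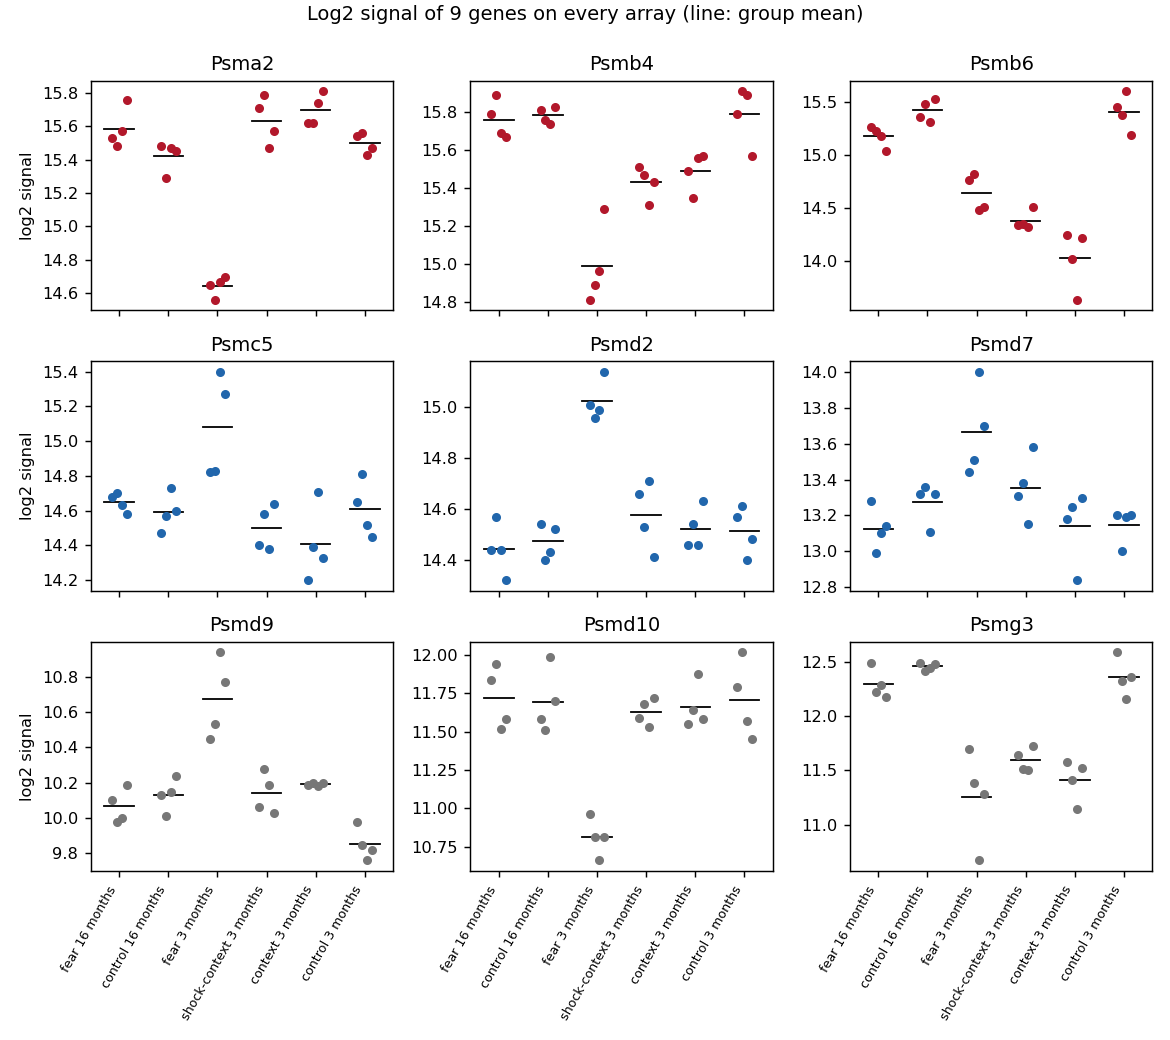
Log2 signal of 3 core genes (top row), 3 regulatory genes (middle row) and 3 assembly chaperones (bottom row) on all 24 arrays; each point is an array and each line a group mean. In every panel the fear arrays aged 3 months stand apart from the fear arrays aged 16 months, while Psmb6 and Psmg3 are also low in the second run (context and shock-context).

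Of the 18 genes with several kept probes, 10 had more than 1 probe called in this comparison, and 4 of those had probes called in opposite directions. The share over all genes with several probes was not counted, so nothing is read from these counts. For Psma2 the opposite calls rest on a dim probe that passed the filter through groups in which it is high. Those were 3 fear arrays aged 3 months and 1 context array, so the call of that probe supports nothing. Psma2 fell on its bright probe at chr13:14717729-14717788 (mm9), while its dim probe downstream at chr13:14718558-14718617 had 3.65, 3.57, 4.44 and 4.14 after fear conditioning at 3 months against 2.07, 1.98, 1.84 and 2.03 in controls aged 3 months. The dim probe was well above background on 3 fear arrays and on no control array, so no fold change is read from it. Psmd7 rose on the probe at chr8:110104402-110104461 and fell on the probe at chr8:110111574-110111633, which had 10.12, 10.16, 10.26 and 10.45 after fear conditioning against 10.79, 11.12, 10.85 and 11.01 in controls (-0.70 ± 0.15, adjusted p = 0.000668). The third Psmd7 probe, at chr8:110105116-110105175, gave 0.16 and did not pass. Psmd12 fell by 0.27 on the probe at chr11:107358963-107359022 and rose by 0.30 on a probe just downstream, at chr11:107359131-107359190, while its junction probe gave -0.02 and did not pass.

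Psme4, a large activator that caps the core without ATP, had 4 kept probes. The brightest, at chr11:30780168-30780227, fell by 0.30. Both probes that span exon junctions rose: the one at chr11:30721054-30723098 had 6.33, 6.11, 6.00 and 6.18 after fear conditioning at 3 months against 5.32, 5.17, 5.39 and 5.34 in controls aged 3 months (0.85 ± 0.20, adjusted p = 0.00168). The one at chr11:30776868-30778426 had 10.72, 10.76, 11.59 and 11.29 against 10.64, 9.93, 10.30 and 10.28 in controls (0.80 ± 0.16, adjusted p = 0.000412). On each of these probes all fear arrays lay above all control arrays, the opposite of the brightest probe. The fourth probe, at chr11:30739112-30739171, gave -0.54 ± 0.25 and did not pass. The direction of Psme4 therefore depends on the probe, and the junction probes are printed to show what they read:
Psme4, chr11:30721054-30723098, plus strand: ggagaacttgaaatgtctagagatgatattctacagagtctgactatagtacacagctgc
Psme4, chr11:30776868-30778426, plus strand: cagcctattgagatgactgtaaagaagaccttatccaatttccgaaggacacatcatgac

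Psmd9 and Psmd11 also differed between probes without being called both ways. The brightest Psmd9 probe, the one called, lies at chr5:123698524-123698583, and the upstream junction probe, at chr5:123689746-123691886, gave -0.03 ± 0.09 and did not pass. The brightest Psmd11 probe did not pass (adjusted p = 0.996), while a probe annotated to the opposite strand of Psmd11, at chr11:80283343-80283402, fell by 1.01 ± 0.18 (adjusted p = 8.44e-05); what transcript that probe reads was not tested.

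**Figure D4:**
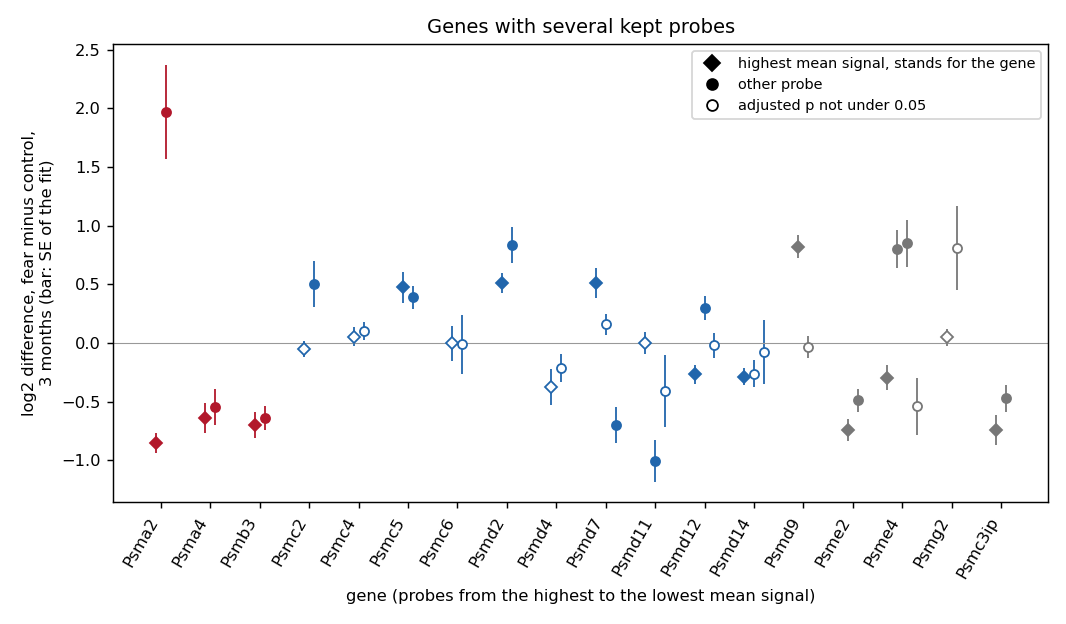
Log2 difference of fear minus control at 3 months for each kept probe of the 18 genes with several probes; diamonds are the brightest probe, which stands for the gene, bars are SE, and filled points have an adjusted p under 0.05. Filled points lie on both sides of 0 for Psmd7, Psmd12, Psme4 and, through its dim probe, Psma2.

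Other genes of the pathway, from a list of 34 measured genes, gave 7 higher and 9 lower in the same comparison, with a median of 0.02. Of all probes 22.6% were higher and 20.7% lower, and nothing particular to the list is read from these counts. Pomp, the chaperone that matures the core particle, fell by 1.18 ± 0.10 (adjusted p = 1.84e-08). Psmb10, a catalytic subunit of the immunoproteasome, fell by 0.78 ± 0.10 (adjusted p = 2.14e-06), as did Psmb9, another such subunit (adjusted p = 1.42e-06); the microglia markers given with the other marker lists moved in the same comparison, and their part was not tested. Uba1, the main ubiquitin-activating enzyme, rose by 0.87 ± 0.17 (adjusted p = 0.000242).

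At 16 months, fear conditioning was set against handling in older mice, the study being about memory impairment with age. None of the 69 member probes passed (limma, beside 0.4% of all probes called, 0.328% higher and 0.0722% lower). At an unadjusted p under 0.05 there were 13, but the share of all probes at that limit was not counted, so nothing is read from it. The median log2 difference was 0.01 over the 14 core genes and -0.04 over the 17 regulatory genes, beside -0.03 over all probes. Psma2 had 15.53, 15.48, 15.57 and 15.76 after fear conditioning at 16 months, against 15.48, 15.29, 15.47 and 15.45 in controls aged 16 months, a difference of 0.16 ± 0.08 that did not pass. Psmb4 had 15.79, 15.89, 15.69 and 15.67, against 15.81, 15.76, 15.74 and 15.83 in controls (-0.02 ± 0.10). Psmb6 had 15.26, 15.23, 15.18 and 15.04, all lower than 15.36, 15.48, 15.31 and 15.53 in controls, with a difference of -0.24 ± 0.12 that did not pass (adjusted p = 0.343). Psmb5 had 14.29, 14.23, 14.51 and 14.34, against 14.35, 15.07, 14.57 and 14.69 in controls (-0.33 ± 0.13, adjusted p = 0.225). Psmd2 had 14.44, 14.57, 14.44 and 14.32, against 14.54, 14.40, 14.43 and 14.52 in controls (-0.03 ± 0.08). The remaining named genes were as close: Psmb7 gave -0.04, Psmd4 -0.28, Psmd14 0.11, Psme1 -0.33, Psme2 -0.06, Psme3 -0.25 and Psme4 -0.04, and none passed.

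The core minus the regulatory particle averaged 0.17 ± 0.05 in the fear group aged 16 months and 0.05 ± 0.27 in the control group aged 16 months (SD, n = 4 each). The fear arrays had 0.21, 0.16, 0.10 and 0.20, against 0.12, -0.34, 0.23 and 0.20 in controls. The low control array is array 2, where the Psma6 spot read 7.17 while the other controls had 14.22, 14.43 and 14.17. Without Psma6 the difference between the groups was -0.01, in place of 0.12 with it. Choroid plexus markers had summed signals of 160353 to 192269 in the fear group aged 16 months and 166732 to 256154 in its controls. Of 12 thalamus markers 5 were higher and all 12 lay above 0 (median log2 difference 0.99), beside 0.328% of all probes called higher. Their summed signal was 51012 to 71253 in the fear group and 32528 to 43104 in controls, both aged 16 months, and their part was not tested.

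The change after conditioning at 16 months was tested against the change at 3 months as an interaction. It passed for 30 member probes (19 higher, 11 lower), where 26.7% of all probes passed (11.9% higher, 14.8% lower), and for 19 member genes; by 75th percentile scaling the split of probes was 23 higher and 6 lower. All 8 core genes that passed had a more positive change at 16 months under either scaling, and of the regulatory genes 1 was more positive and 3 more negative, which turned to 4 more positive and 1 more negative with 75th percentile scaling. The count of 8 core genes fell to 5, all more positive, without control array 3 aged 16 months, without fear array 2 aged 16 months, without both slide 2 arrays aged 16 months, with random blocks, with normexp and with the deposited values. The median over the core genes was 0.50, that over the regulatory genes -0.11, and that over all probes 0.03. The 2 genes with the largest change among those that passed were, in the alpha ring, Psma2 and Psma5 and, in the beta ring, Psmb4 and Psmb1: 1.02 ± 0.12 for Psma2 (adjusted p = 4.03e-06), 0.64 ± 0.12 for Psma5 (adjusted p = 0.000543), 0.78 ± 0.14 for Psmb4 (adjusted p = 0.000333) and 0.55 ± 0.13 for Psmb1 (adjusted p = 0.00402). Of the regulatory genes, Psmd2 had -0.54 ± 0.12 (adjusted p = 0.00168), Psmd7 -0.67 ± 0.18 (adjusted p = 0.00737) and Psmd14 0.40 ± 0.10 (adjusted p = 0.00526). Psmd2 did not pass with 75th percentile scaling, at -0.23 (adjusted p = 0.207). The Psmd7 value is that of its brightest probe, and its probe at chr8:110111574-110111633 was called in the opposite direction. Psme4 also had probes called both ways, as did Psma2 through its dim probe. Psmb5, Psmb7 and Psmd4 had -0.30, 0.17 and 0.09 and did not pass.

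Of the assembly and activator genes, 4 passed with a more positive change at 16 months and 2 with a more negative one. Psmd10 had 0.92 ± 0.18 (adjusted p = 0.000763), Psmg3 0.93 ± 0.22 (adjusted p = 0.00271), Psmg1 0.55 ± 0.14 (adjusted p = 0.00654) and Psme2 0.68 ± 0.13 (adjusted p = 0.000518). Psmd9 had -0.88 ± 0.14 (adjusted p = 7.31e-05) and Psmd5 -0.32 ± 0.10 (adjusted p = 0.0247). Of the other pathway genes, Pomp had 1.22 ± 0.15 (adjusted p = 4.71e-06), Uba1 -1.11 ± 0.24 (adjusted p = 0.00144), Shfm1, a small subunit of the regulatory particle, 0.90 ± 0.12 (adjusted p = 1.45e-05), and Psmb9 0.83 ± 0.19 (adjusted p = 0.00205). The core minus the regulatory particle changed by 0.59 more at 16 months than at 3 months, and by 0.46 without control array 2 aged 16 months.

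After conditioning, mice aged 16 months were also set against mice aged 3 months, a comparison that shares its 4 young fear arrays with the first. In it 40 member probes passed (25 higher, 15 lower), where 39.8% of all probes passed (18.5% higher, 21.2% lower); by 75th percentile scaling the split was 32 higher and 8 lower. Of the core genes 10 were higher and 1 lower, and of the regulatory genes 2 were higher and 6 lower, with medians of 0.46 and -0.07 beside 0.05 over all probes; with 75th percentile scaling the regulatory genes turned to 7 higher and 2 lower, and the core genes stood at 10 higher. Without fear array 3 aged 3 months the regulatory genes stood at 1 higher and 3 lower, and without fear array 1 or 2 aged 16 months, or with random blocks, at 1 higher and 4 lower. Psma2 differed by 0.94 ± 0.08 (adjusted p = 3.22e-08), with 15.53, 15.48, 15.57 and 15.76 at 16 months against 14.65, 14.56, 14.67 and 14.70 at 3 months, and Psmb4 by 0.78 ± 0.10 (adjusted p = 2.80e-06). Psmd2 differed by -0.58 ± 0.08 (adjusted p = 8.96e-06). Psmd7 and Psme4 had probes called in opposite directions here, as did Psma2 through its dim probe. Psmd10 and Psmg3 differed by 0.91 ± 0.13 (adjusted p = 9.27e-06) and 1.03 ± 0.15 (adjusted p = 1.38e-05). Within slides 1 to 4 the core minus the regulatory particle was 0.48, 0.43, 0.47 and 0.56 higher at 16 months. Choroid plexus markers were higher at 16 months for 14 of 15 measured genes.

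Handled controls aged 16 months were set against handled controls aged 3 months. A single member probe passed, where 0.795% of all probes did (0.547% higher, 0.248% lower): the junction probe of Psmd9, at 0.45 ± 0.09 (adjusted p = 0.0166), while the brightest Psmd9 probe gave 0.28 and did not pass. The call is lost with the deposited values, with arrays 1 and 2 and arrays 3 and 4 as random blocks, with only the 8 arrays compared, without control array 2 aged 3 months and without control array 4 aged 16 months. At an unadjusted p under 0.05 there were 5 member probes, with no share over all probes counted, and nothing is read from this. The median over the core genes was -0.03 and over the regulatory genes -0.02. Psma6 had 14.22, 7.17, 14.43 and 14.17 at 16 months, against 14.30, 14.06, 13.66 and 14.04 at 3 months, and did not pass. Of the other pathway genes only Psmb8, an immunoproteasome subunit, passed, at 0.57 ± 0.10 (adjusted p = 0.00720). All 10 microglia markers lay above 0 in this comparison (median 0.41), 3 of them passed, and their summed signal was 73374 to 85471 at 16 months and 60696 to 69667 at 3 months; their part was not tested.

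Shock before the context was set against the context alone, both in the second run, to ask what a shock on entry adds. Neither group was shocked after exploring, so the comparison does not bear on the pairing of shock and place. No member probe passed (limma, beside 0.00516% of all probes called). At an unadjusted p under 0.05 there were 2, with no share over all probes counted, and nothing is read from them. Psmb6 had 14.34, 14.35, 14.32 and 14.51 in the shock-context group, all above 14.24, 14.02, 13.63 and 14.21 in the context group, with a difference of 0.35 ± 0.12 that did not pass (adjusted p = 0.988). Psma4 had 13.27, 13.20, 12.93 and 12.77, against 13.42, 13.28, 13.18 and 13.41 (-0.28 ± 0.13, adjusted p = 0.988). The core minus the regulatory particle was -0.06 ± 0.06 in the shock-context group and 0.00 ± 0.05 in the context group (SD, n = 4 each).

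The context group was set against the controls aged 3 months of the first run, so this difference holds the run too. In it 41 member probes passed (24 higher, 17 lower), beside 64.7% of all probes (30.4% higher, 34.3% lower); by 75th percentile scaling the split was 17 higher and 30 lower. Of the core genes, 2 of 7 alpha genes were higher and none lower, and of the 7 beta genes 1 was higher and 4 lower. Beside the shares of all probes, nothing particular to the rings is read from these counts. With 75th percentile scaling the core genes stood at 2 higher and 8 lower, and the regulatory genes, 6 higher and 2 lower under quantile normalization, turned to 2 higher and 8 lower. Without control array 3 aged 3 months 1 core gene was higher and 4 lower. Psmb6 had 14.24, 14.02, 13.63 and 14.21 in the context group, against 15.45, 15.38, 15.60 and 15.19 in controls, a log2 difference of -1.38 ± 0.12 (adjusted p = 8.36e-09). Psmb5 had 13.84, 13.71, 13.67 and 13.82, against 14.56, 14.35, 14.55 and 14.50 in controls (-0.73 ± 0.13, adjusted p = 4.87e-05). Psma4 differed by 0.63 ± 0.13 (adjusted p = 0.000268), Psmd1 by 0.84 ± 0.12 (adjusted p = 2.70e-06) and Psmd3 by -0.87 ± 0.14 (adjusted p = 1.65e-05). All 4 activator genes were lower on their brightest probes, with Psme1 at -0.67, Psme3 at -0.63, Psme4 at -0.53 and Psme2 at -0.35, while 2 dimmer Psme4 probes were higher, by 2.22 and 1.57. In the same comparison 6 of 10 microglia markers were lower and none higher, 4 of 15 choroid plexus markers were lower and 1 higher, and 4 of 8 oligodendrocyte markers were higher; their part was not tested. The summed microglia signal was 46602 to 50838 in the context group and 60696 to 69667 in controls. The kept Psmb11 probe, whose reading was not tested, differed by -1.32 ± 0.12, and Psmg3 differed by -0.95 ± 0.15.

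The shock-context group against the same controls gave 36 member probes (20 higher, 16 lower), beside 60.9% of all probes (29.3% higher, 31.6% lower); by 75th percentile scaling the split was 12 higher and 26 lower. This comparison shares its 4 control arrays with the one before it. Psmb6 differed by -1.03 ± 0.12 (adjusted p = 5.39e-07), Psmb3 by -0.85 ± 0.11 (adjusted p = 1.75e-06), Psmd1 by 0.82 ± 0.12 (adjusted p = 4.77e-06), Psmd3 by -0.63 ± 0.14 (adjusted p = 0.000663) and Psmb11 by -1.21 ± 0.12 (adjusted p = 4.04e-08). The core genes stood at 2 higher and 5 lower and the regulatory genes at 4 higher and 2 lower, which turned to 0 and 8 and to 3 and 6 with 75th percentile scaling. Without control array 4, or without shock-context array 1 or 2, no core gene was higher. In this comparison 5 of 10 microglia markers were lower and 5 of 8 oligodendrocyte markers higher, and their part was not tested.

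The fear group aged 3 months was set against the context and the shock-context groups, again across the runs. Choroid plexus markers summed to 21568 to 35616 in the fear group, against 138263 to 284162 in the shock-context group and 112950 to 239335 in the context group, and their part was not tested. Against the context group 47 member probes passed (18 higher, 29 lower), beside 60.5% of all probes (33.9% higher, 26.6% lower), and against the shock-context group 44 (16 higher, 28 lower), beside 58% of all probes (31.6% higher, 26.3% lower). By 75th percentile scaling the splits were 20 higher and 29 lower, and 16 higher and 29 lower. Of the core genes 2 were higher and 7 lower against the context group, and 1 higher and 8 lower against the shock-context group. Of the regulatory genes 6 were higher and 6 lower against the context group, and 6 higher and 5 lower against the shock-context group, which turned to 3 higher and 6 lower with 75th percentile scaling and also without fear array 4. With the deposited values or normexp 5 core genes were lower than in the shock-context group, and with the deposited values 3 regulatory genes were lower than in the context group. Psma2 had 14.65, 14.56, 14.67 and 14.70 after fear conditioning, against 15.71, 15.79, 15.47 and 15.57 in the shock-context group and 15.62, 15.62, 15.74 and 15.81 in the context group. No fear array reached either group, and the differences were -0.99 ± 0.08 (adjusted p = 8.14e-09) from shock-context and -1.05 ± 0.08 (adjusted p = 2.51e-09) from context. Psma4 differed by -0.99 ± 0.13 and -1.27 ± 0.13 and Psmd10 by -0.82 ± 0.13 and -0.85 ± 0.13. Psmd2 was higher by 0.45 ± 0.08 and 0.51 ± 0.08 on its brightest probe, and Psmc5 by 0.58 ± 0.13 and 0.67 ± 0.13. On the Psmd2 junction probe the fear arrays, at 13.02 to 13.22, overlapped the shock-context arrays, at 12.72 to 13.13. They also overlapped the context arrays, at 12.27 to 13.10. The catalytic Psmb5 was higher by 0.68 ± 0.13 and 0.70 ± 0.13, unlike its difference of -0.03 from the controls of its own run.

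Over the 6 groups, the level of Psma2 ran 15.58 ± 0.12 in fear mice aged 16 months, 15.42 ± 0.09 in controls aged 16 months, 14.65 ± 0.06 in fear mice aged 3 months, 15.64 ± 0.14 in shock-context mice, 15.70 ± 0.09 in context mice and 15.50 ± 0.06 in controls aged 3 months (SD, n = 4 each). Psmd10 showed the same standing, at 10.81 ± 0.12 in fear mice aged 3 months and between 11.63 and 11.72 in the other groups. Psmb6 did not: fear mice aged 3 months, at 14.64 ± 0.17, lay between the second run, at 14.38 ± 0.09 and 14.03 ± 0.28, and the remaining groups, at 15.18 to 15.42. For Psmd2 the fear mice aged 3 months stood at 15.03 ± 0.08, and the other 5 groups lay between 14.45 and 14.58.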

How the data were processed

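RNA of 24 mouse hippocampi was measured on Agilent single-colour arrays, and the deposited scanner files give a background-subtracted intensity per spot, made with Agilent Feature Extraction 9.5.3.1, per the file headers; the submitters' processing notes name limma. A deposited value table, taken from its values to be on a log2 scale with unstated scaling, was used as an alternative only. Here the processed intensity was put on the log2 scale and averaged over spots of a probe after control and outlier spots were left out. The probe values were then quantile normalized over 24 arrays. Probes well above background on at least 4 arrays were kept (38763 of 41174; 2 more had no value in a group). Gene names come from the newer of the 2 annotations in the file headers (mm9), and 12 member probes had another name in the older one (mm7). limma 3.58.1 in R 4.3.3 fitted 6 group means (18 residual degrees of freedom), with Benjamini-Hochberg adjustment over all probes and a threshold of 0.05. The number of arrays limits the precision. The script was tested on simulated data.

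The members, the roles and the lists were chosen with earlier results of these data known. Named were, per comparison and role, the 2 members called with the largest change, the catalytic subunits, Psmd4, Psmd14, the activators, genes with probes called in opposite directions, and 4 other pathway genes. Array numbers are shared between groups, but only 14 of 24 pairs of same-numbered arrays had deviations correlated above 0.1 (from -0.417 to 0.655), so they were not taken to pair mice. In the first run same-numbered arrays also share a slide, and the main fit has no slide term. The main fit takes the arrays of a group as independent, although arrays 1 and 2 and arrays 3 and 4 as random blocks gave a correlation of 0.3197. Alternatives were 75th percentile scaling, normexp background correction, no filter, all arrays well above background, the deposited values, quantile normalization within each run, the slide as a block, arrays 1 and 2 and arrays 3 and 4 of each group as random blocks, only the arrays compared, the mean of all kept probes of a gene, and leaving out each array. Leaving out Psma6, leaving out slide 2 at 16 months and the median over genes were added after seeing the data.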

Additional observations from a re-analysis of the deposited data

Results flagged for a closer look

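In 14 of 288 sets of 4 arrays, a single array lay far from the other 3 by Dixon's ratio of the gap to the range; chance gives about 1 in 20 such sets. On control array 2 aged 16 months, Psma6 read 7.17 where the others had 14.17 to 14.43, Psmg4 read 10.64 where the others had 12.29 to 12.42, Psma2 read 15.29 and Psma5 read 15.39, both below the others of that group. On control array 3 aged 3 months, Psma1 read 13.64 where the others had 14.54 to 14.62, and Psmg1 read 11.35 where the others had 11.68 to 11.73. Psmd7 read 13.00 on control array 2 aged 3 months and 13.11 on control array 3 aged 16 months, each the lowest of its group. Psmd11 read 14.19 on fear array 1 aged 16 months, the lowest, and 14.75 on shock-context array 3, the highest. Psmd5 read 12.82 on fear array 3 aged 3 months, the highest. Psma7 read 15.46 and Psmb6 read 14.51 on shock-context array 4, the highest, and Psma6 read 14.30 on context array 4, the lowest.

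The change after fear conditioning differed between 16 and 3 months by the interaction test for 19 genes. The log2 difference of changes was positive for Psma2 (1.02), Psma4 (0.60), Psma5 (0.64), Psma7 (0.33), Psmb1 (0.55), Psmb3 (0.47), Psmb4 (0.78), Psmb6 (0.52), Psmd14 (0.40), Psmd10 (0.92), Psme2 (0.68), Psmg1 (0.55), Psmg3 (0.93) and Psmc3ip (0.55). It was negative for Psmd2 (-0.54), Psmd6 (-0.33), Psmd7 (-0.67), Psmd5 (-0.32) and Psmd9 (-0.88). Of these, 11 passed under every alternative run. Each value is that of the gene's brightest probe. Another Psmd7 probe was called in the opposite direction, as was the dim probe of Psma2.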

How the results depend on the processing

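The number of arrays and the run limit these results: across the 2 runs, run and group cannot be told apart. Of the counts and particle differences, 331 stayed close to their value and 17 moved; of the single genes, 10959 of 11976 values kept direction and side of the threshold, 421 lost the call, 145 gained it, 9 turned sign with a call in at least 1 of the settings, and 442 turned sign with a call in neither (51 of them with 75th percentile scaling). Fear against control at 3 months kept 14 of 25 genes under every alternative, old against young fear 18 of 27, and the interaction 11 of 19. At 3 months, calls lost by leaving out a single array were Psma7 (control array 2, fear arrays 1 and 3), Psmc3 (control arrays 2 and 3, fear arrays 3 and 4), Psmd6 (control array 4, fear arrays 3 and 4) and Psme4 (control arrays 1 and 2, fear arrays 1 and 2).

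Fear against control at 16 months gave 1 member probe with all arrays well above background. The old against young control count was 0 with random blocks (correlation 0.3197), the deposited values and only the arrays compared. The core minus regulatory difference with the mean of all kept probes was -0.36 for fear against control at 3 months, 0.39 for fear at 16 against 3 months, -0.20 for fear against context and -0.17 for fear against shock-context. The deposited values gave -0.13 for shock-context against control and -0.32 for fear against shock-context, normexp gave -0.12 and -0.32, and the median over genes gave -0.38 for fear against context and -0.33 for fear against shock-context; the cause was not tested.

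With 75th percentile scaling these turned sign with a call in at least 1 of the settings: Psmd6 (-0.022) and Psmc4 (-0.20) for fear against control at 3 months, Psmc1 (0.19) and Psmc4 (0.18) for fear at 16 against 3 months, Psma2 (-0.20) and Psmd2 (-0.28) for context against control, the opposite-strand Psmd11 probe (0.045) for fear against context, and Psma8 (0.48) and the second Psma2 probe (1.47) for fear against shock-context; that Psma2 probe was well above background on 0 of 4 shock-context arrays, so 1.47 is no measured difference.

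Leaving out each array in turn gave 34 to 38 member probes for fear against control at 3 months, 0 to 1 at 16 months (1 without control array 1), 0 to 1 for old against young controls (0 without young control array 2 or old control array 4), 34 to 39 for fear at 16 against 3 months, 22 to 31 for the interaction, 0 to 0 for shock-context against context, 36 to 42 and 30 to 37 for context and shock-context against control, and 44 to 47 and 42 to 44 for fear against context and shock-context. The core minus regulatory ranges, in the same order, were -0.52 to -0.44, -0.02 to 0.17, -0.16 to 0.03, 0.47 to 0.51, 0.46 to 0.65, -0.09 to -0.03, -0.20 to -0.12, -0.26 to -0.19, -0.34 to -0.30 and -0.29 to -0.24. With the slide as a replicate block the counts in the first run, in the same order, were 39, 0, 1, 41 and 30, and the second run had 0. The 75th percentile moved the median of all probes to -0.27, 0.21, 0.18, -0.36, -0.33, 0.31 and 0.31 for fear against control at 3 months, fear at 16 against 3 months, the interaction, context and shock-context against control, and fear against context and shock-context, and the share of called probes that were higher to 38.6%, 57.7%, 55.4%, 26.9%, 24.7%, 70% and 70.9%, in place of 52.1%, 46.6%, 44.4%, 47%, 48.1%, 56% and 54.5%. Under that scaling 44.6%, 40%, 25.9%, 68.9%, 65.5%, 65.9% and 64.9% of all probes were called, in the same order.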
